A study of Mus musculus with 23 samples.

Results

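Plvap, Aqp1, Cldn5, Pecam1, Cdh5, Kdr, Tek, Mfsd2a, Abcb1a and Slc2a1 are endothelial and blood-nerve barrier genes whose RNA was measured in mouse sciatic nerves (SNs) after a crush and in inducible knockouts (iKO) of the miRNA pathway. They are 10 of the 43068 genes listed for the crush libraries and of the 22880 listed for the iKO libraries, and were taken by symbol. All 10 were found in both. They were chosen by the fold changes of these same libraries after crush and in the mutants, for a comparison of the leakage marker Plvap and the water channel Aqp1 with endothelial genes thought to be stable. Their values after crush and in the mutants are therefore given as a description. Calls of members there are shown beside the share over all genes and are not read as tests. Tests are read for 124 other endothelial and barrier genes.

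Total RNA of whole nerve pieces was sequenced in 23 libraries of 7 groups. The crush groups came from wild-type C57bl6 mice, C57BL/6J males of 2 months per the study's methods. They comprised crushed SNs at 3 days post crush (3 dpc, n = 4), the contralateral SNs of injured mice (n = 4), and uncrushed SNs of surgery controls (n = 3). Crushed SNs were sampled as a 7 mm piece starting 1 mm distal to the crush. The mutant groups were collected 3 months post tamoxifen (3 mpT). Per the study, not all mutants were affected, and those analysed were preselected by nerve morphology. Differences from controls therefore describe affected nerves. Dicer iKO mice carried Dicer1 flox/flox and Dgcr8 iKO mice Dgcr8 flox/flox, both with a tamoxifen-inducible CreERT2 transgene (n = 3 each). Their controls (n = 3 each) carried the same floxed alleles without the transgene and received tamoxifen as well, on 5 consecutive days at 8 to 10 weeks of age. The Cre of this transgene acts in adult myelinating Schwann cells (SCs), not in endothelial cells.

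Endothelial cells of endoneurial vessels form the blood-nerve barrier together with the perineurium. Tight junctions close the gaps between these cells, little fluid is carried across them in vesicles, and transporters move glucose, amino acids and lipids in and drugs out. Plvap builds the diaphragms of fenestrae and caveolae and is nearly absent from closed barriers, while Mfsd2a, a carrier of lysophospholipids, restrains vesicle transport in barrier endothelium. After nerve injury the barrier opens, and leukocytes enter the nerve.

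Total counts ran from 6617600 to 12805921 in the crush libraries and from 5594838 to 10143207 in the iKO libraries, so that 3 counts corresponded to 0.234 to 0.453 and 0.296 to 0.536 CPM (counts scaled to library size). This limit covers counting error only. Values in CPM were scaled by TMM over the libraries of each experiment. The 2 experiments were normalized apart and prepared with different kits per the labels (the methods describe the TruSeq kit alone), so levels are compared within an experiment. Dicer1 RNA was at 88.0, 87.4 and 90.5 CPM in Dicer controls and at 81.3, 82.1 and 81.9 CPM in Dicer iKO, and Dgcr8 RNA at 38.4, 35.4 and 41.8 CPM in Dgcr8 controls and at 39.4, 54.0 and 41.8 CPM in Dgcr8 iKO. Counts over the whole gene in a whole nerve are no direct check of a deletion of floxed exons in SCs. Summed macrophage markers were at 764 to 1720 CPM in crushed against 188 to 220 CPM in uncrushed SNs, at 3733 to 6593 against 368 to 1120 CPM in Dicer iKO and controls, and at 2366 to 5686 against 362 to 432 CPM in Dgcr8 iKO and controls. Of these 8 markers, 7, 5 and 6 were called higher, and 1 was called lower in Dgcr8 iKO (Cd163, -2.61). SC markers were lower after crush (1893 to 2863 against 40245 to 43224 CPM, 4 of 6 called) and in Dgcr8 iKO (14234 to 27836 against 42080 to 44702 CPM, 3 of 6 called). In Dicer iKO they summed to 21514 to 26729 CPM, below the 26994 to 45314 CPM of the controls, with 0 of 6 called. Dicer controls 1 and 2 stood apart from Dicer control 3, with summed perineurial markers at 1566, 1201 and 710 CPM, erythroid markers at 3747, 306 and 78.4 CPM, and fibroblast markers at 11334, 8406 and 3781 CPM. Dicer iKO libraries summed to 609 to 801, 65.4 to 615 and 12094 to 13176 CPM of these markers. Their perineurial sums were nearer to control 3 and their fibroblast sums to controls 1 and 2. The Dicer results are also given without controls 1 and 2, a choice made on the perineurial and erythroid markers.

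A gene was called where edgeR's quasi-likelihood test gave a fold change of at least 2 and a Benjamini-Hochberg adjusted p of at most 0.05. Between crushed and uncrushed SNs, 4 of the 10 members were called higher (Plvap, Aqp1, Cdh5 and Tek) and 1 lower (Mfsd2a), where 15.3% and 21.1% of all genes tested were called. Against contralateral SNs, which share the crushed libraries, 4 were higher and 2 lower (Mfsd2a and Abcb1a), with 14.6% and 13.6% of all genes called. In Dgcr8 iKO 2 of 10 were higher (Plvap and Aqp1) and 2 lower (Cldn5 and Mfsd2a), beside 13.4% and 6.99% of all genes. In Dicer iKO 1 of the 9 members that passed the filter on low counts was higher (Aqp1) and 0 lower, beside 7.37% and 1.64% of all genes. By the adjusted p alone, 5 members were higher and 4 lower after crush, where 33.8% and 33.4% of all genes passed, and 5 and 5 against contralateral SNs (33.5% and 32.9%). Likewise 2 were higher and 5 lower in Dgcr8 iKO (23.9% and 20.6% of all genes), and 1 and 2 in Dicer iKO (12.3% and 8.88%). Nothing is read from these shares, since the same contrasts chose the members. The members set beside Plvap and Aqp1 as stable are described by name, with their values and without a reading of their calls. In bulk RNA, fewer or more cells of a type and less or more RNA per cell cannot be told apart.

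**Figure D1:**
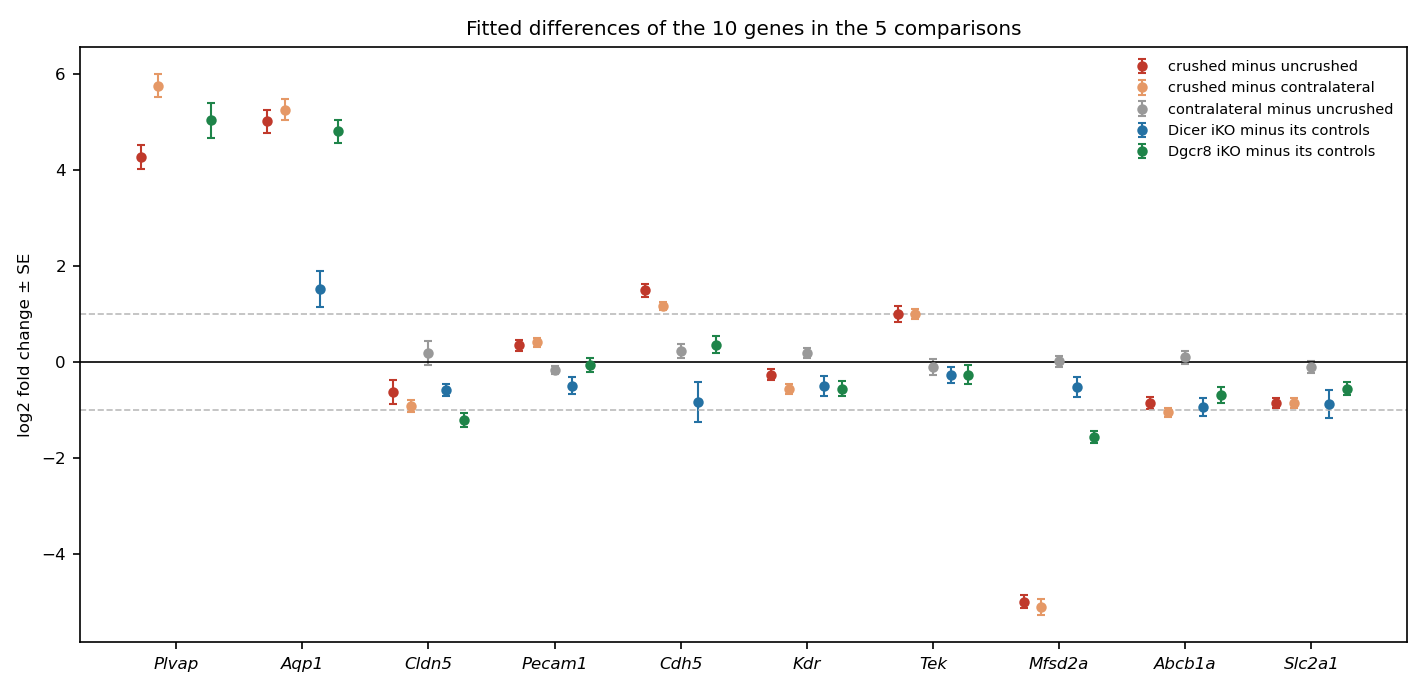
Log2 fold change (vertical axis) of the 10 members (horizontal axis) in 5 comparisons, shown by colour, with standard errors as bars and dashed lines at a change of 1 in either direction. Comparisons in which a gene did not pass the filter on low counts have no point. Plvap and Aqp1 lie at 4.27 and 5.02 after crush and at 5.04 and 4.81 in Dgcr8 iKO, and Mfsd2a lies at -4.99 and -1.56. In Dicer iKO Aqp1 lies at 1.52 and Plvap has no point.

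Plvap (chr8:71497765-71511752, minus strand, GRCm38) was close to the detection limit in all nerves without injury or mutation. Uncrushed SNs held 1.89, 0.876 and 0.684 CPM (21, 7 and 4 counts) and contralateral SNs 0.283, 0.471, 0.100 and 0.821 CPM. At 3 dpc its level was 22.7, 23.3, 26.9 and 19.2 CPM. Every crushed SN was far above every uncrushed and contralateral SN. The log2 fold change was 4.27 ± 0.24 (SE) against uncrushed and 5.76 ± 0.24 against contralateral SNs. Without uncrushed 1, which held most of the uncrushed counts, the first was 4.99. The ratio of pooled counts to uncrushed SNs was 18, with an exact 95% interval of 12.7 to 26.4 that covers counting error only.

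In the mutants Plvap separated the lines. Dgcr8 controls had 0.236, 0.272 and 0.415 CPM, which is 2, 2 and 4 counts, and Dgcr8 iKO had 9.44, 13.8 and 8.87 CPM (80, 145 and 76 counts). The mutant libraries of this line were all above the controls, with a log2 fold change of 5.04 ± 0.37 and a ratio of pooled counts of 34.8 (exact 95% interval 17.4 to 81.4). Dicer controls had 1.44, 1.19 and 0.676 CPM and Dicer iKO 1.86, 1.21 and 0.831 CPM. These overlapped, and with so few counts Plvap did not pass the filter for the Dicer comparison. Its pooled ratio there was 1.2, with an interval of 0.667 to 2.17 that covers counting error only. The part of macrophages, whose sums are given above, in the Plvap values was not tested.

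Aqp1 (chr6:55336432-55348555, plus strand), a water channel of endothelium outside closed barriers, of red cells and of some glia, was high in the same groups as Plvap. Uncrushed SNs held 0.899, 0.751 and 0.855 CPM, contralateral SNs 0.943, 0.706, 0.401 and 0.615 CPM, and crushed SNs 22.8, 27.0, 33.4 and 20.6 CPM. The crushed libraries did not overlap the others, and the log2 fold change was 5.02 ± 0.24 against uncrushed and 5.26 ± 0.22 against contralateral SNs. Dgcr8 controls held 2.60, 0.952 and 2.07 CPM and Dgcr8 iKO 60.3, 52.2 and 50.05 CPM, a log2 fold change of 4.81 ± 0.24. Erythroid markers, which share red cells with Aqp1, summed to 46.1 to 360 CPM in Dgcr8 controls and to 10.4 to 35.7 CPM in Dgcr8 iKO. All 4 erythroid markers tested were called lower there and after crush, and the part of red cells in the Aqp1 values was not tested.

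Dicer iKO libraries had 5.59, 14.5 and 11.4 CPM of Aqp1 against 4.45, 3.04 and 3.38 CPM in their controls. All 3 were above all controls, the lowest by a small margin. The log2 fold change of 1.52 ± 0.37 was smaller than in Dgcr8 iKO, by 3.30 ± 0.49. It was 1.61 ± 0.56 without Dicer controls 1 and 2, where it was no longer called. The call was also lost when Dicer control 2, Dicer iKO 2 or Dicer iKO 3 was left out.

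**Figure D2:**
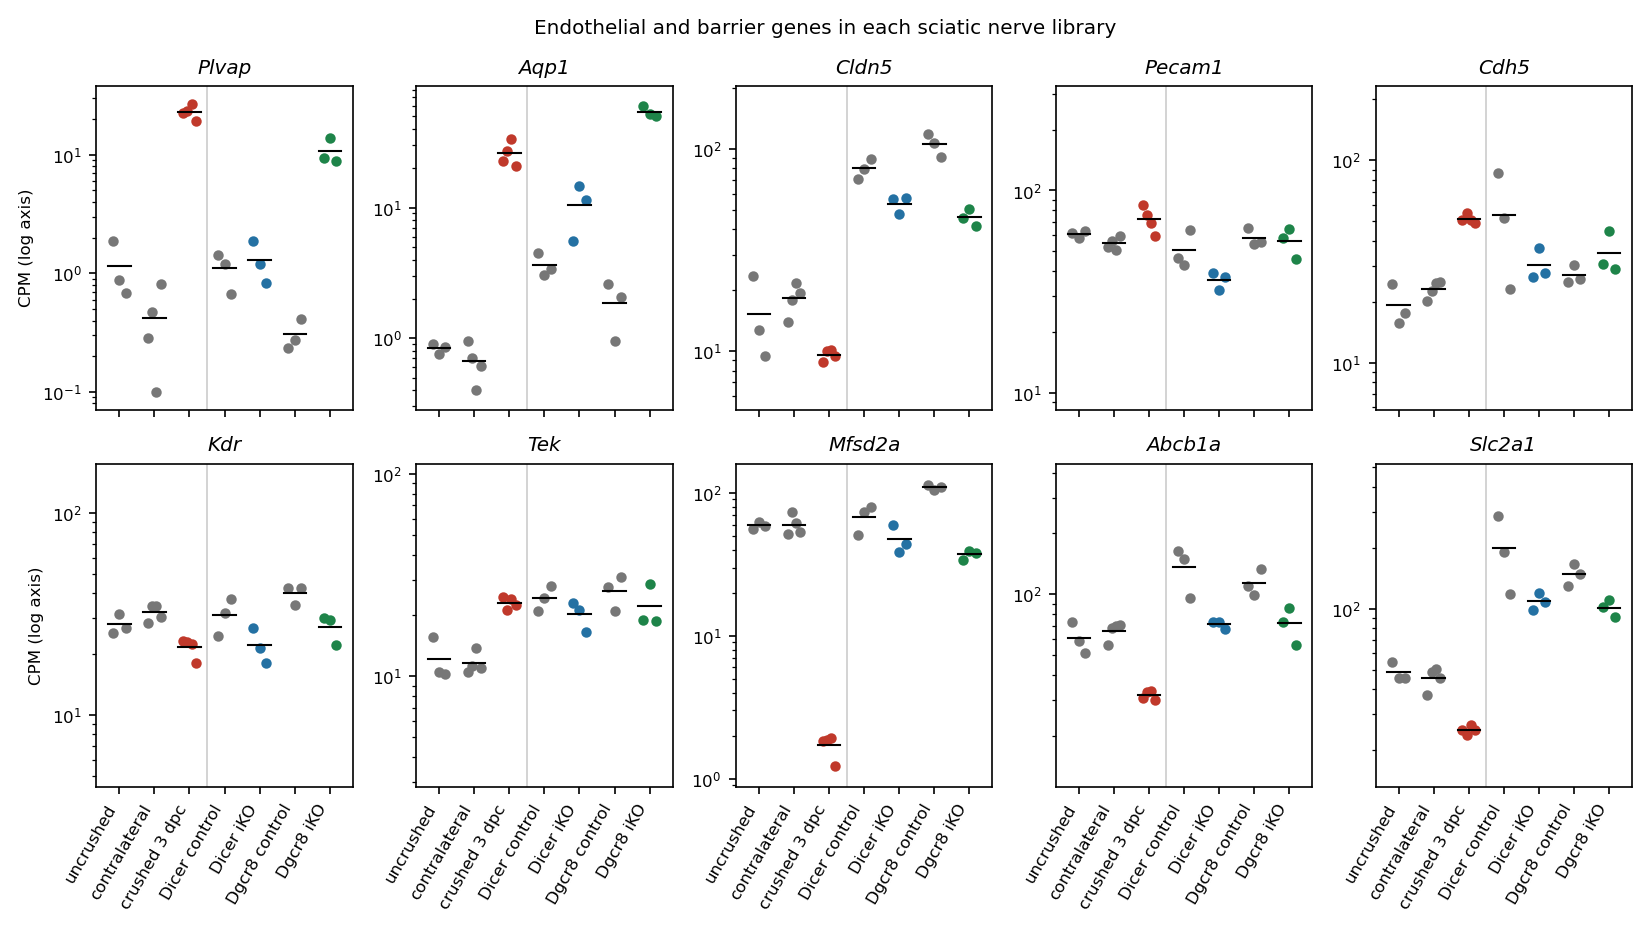
Level of each member in every library (points, CPM on a log axis) by group, with the mean of each group as a horizontal bar and a vertical line between the experiments. The 4 crushed libraries lie at 19.2 to 26.9 CPM for Plvap and at 1.22 to 1.92 CPM for Mfsd2a, apart from all uncrushed and contralateral libraries, and the Dgcr8 iKO libraries lie at 8.87 to 13.8 CPM for Plvap.

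Mfsd2a (chr4:122946850-122961188, minus strand) was the mirror image. Uncrushed SNs held 56.3, 62.8 and 58.6 CPM, contralateral SNs 51.5, 73.3, 61.8 and 53.5 CPM, and crushed SNs 1.84, 1.87, 1.92 and 1.22 CPM, which is 13 to 23 counts. The groups were far apart, with a log2 fold change of -4.99 ± 0.13 against uncrushed SNs. Dgcr8 controls held 113, 104 and 111 CPM and Dgcr8 iKO 34.1, 39.1 and 38.3 CPM (-1.56 ± 0.12), again without overlap. In the Dicer line the controls at 51.0, 73.4 and 79.7 CPM overlapped the iKO at 59.6, 38.5 and 43.9 CPM, with a log2 fold change of -0.52 ± 0.21.

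The windows around the transcript starts of Aqp1 and Mfsd2a are shown because these genes had the largest opposite differences among the members with a RefSeq promoter. Of the 10 members, 7 had one in the RefSeq table (GRCm38.p6, 250 bases before to 50 after the start), Plvap, Pecam1 and Cdh5 being the others. The Aqp1 window is chr6:55336049-55336348 on the plus strand and lies wholly upstream of the gene start given above. The Mfsd2a window is chr4:122961139-122961438 on the minus strand. Capitals mark AGGAAG, the core of an ETS site, in Aqp1, and ACGTG, the core of a hypoxia response element, in Mfsd2a.
Aqp1: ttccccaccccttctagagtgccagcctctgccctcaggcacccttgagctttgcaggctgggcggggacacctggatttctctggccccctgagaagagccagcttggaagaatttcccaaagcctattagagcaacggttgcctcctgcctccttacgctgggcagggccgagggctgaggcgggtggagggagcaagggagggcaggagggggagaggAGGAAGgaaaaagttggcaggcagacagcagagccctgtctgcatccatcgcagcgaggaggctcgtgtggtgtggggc
Mfsd2a: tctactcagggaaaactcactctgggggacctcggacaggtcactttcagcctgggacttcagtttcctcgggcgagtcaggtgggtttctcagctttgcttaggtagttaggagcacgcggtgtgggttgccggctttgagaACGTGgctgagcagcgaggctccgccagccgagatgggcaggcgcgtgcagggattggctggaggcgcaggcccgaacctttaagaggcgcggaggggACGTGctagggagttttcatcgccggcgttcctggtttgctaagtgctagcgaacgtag
Each motif was searched on both strands. AGGAAG was in 2 of the 7 member windows (Aqp1 and Abcb1a) and in 35.35% of 32851 promoters, and ACGTG in 2 of 7 (Mfsd2a and Slc2a1) and in 19.62%. The Abcb1a window, chr5:8566841-8567140 on the plus strand, lies far upstream of that gene's start at 8660077. TGACTCA, an AP-1 site, was in 0 of 7 and in 5.202% of promoters. A match describes these letters in these windows and no more.

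The efflux pump Abcb1a and the glucose carrier Slc2a1 were lower after crush, by less than Mfsd2a. Abcb1a was at 73.3, 58.6 and 51.1 CPM in uncrushed, at 56.0, 68.1, 69.8 and 70.5 CPM in contralateral and at 30.6, 32.8, 33.3 and 30.1 CPM in crushed SNs. All crushed libraries were below all others, with log2 fold changes of -0.85 ± 0.12 and -1.04 ± 0.09. Slc2a1, which perineurial cells and red cell precursors also express, was at 54.5, 45.2 and 45.3 CPM in uncrushed and at 25.2, 23.6, 26.5 and 25.0 CPM in crushed SNs. This too was a gap without overlap (-0.85 ± 0.11).

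In Dgcr8 iKO, Abcb1a was at 72.7, 86.0 and 56.5 CPM against 110, 99.6 and 133 CPM (-0.67 ± 0.17). Slc2a1 was at 102, 111 and 90.8 CPM against 130, 167 and 149 CPM (-0.55 ± 0.13). Neither pair of groups overlapped, and both differences were below the 2-fold limit. In the Dicer line the controls spread widely, with Slc2a1 at 288, 191 and 118 CPM and Abcb1a at 163, 149 and 96.2 CPM in controls 1, 2 and 3. The iKO libraries held 98.8, 120 and 107 CPM of Slc2a1 and 73.2, 72.6 and 67.7 CPM of Abcb1a. The Slc2a1 difference of -0.87 ± 0.29 became -0.12 ± 0.15 against control 3 alone, and that of Abcb1a went from -0.93 ± 0.19 to -0.44 ± 0.14. Perineurial markers were highest in the same control libraries as Slc2a1, and their part in the difference was not tested.

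Of the junction genes, Cldn5, the main claudin of barrier endothelium, was lower in both mutant lines. It was at 119, 107 and 90.9 CPM in Dgcr8 controls and at 45.6, 50.7 and 41.6 CPM in Dgcr8 iKO (-1.20 ± 0.14). Dicer controls held 71.1, 79.5 and 89.2 CPM and Dicer iKO 56.2, 47.6 and 56.9 CPM (-0.57 ± 0.12). Neither line overlapped its controls. After crush, 8.82, 10.01, 10.08 and 9.42 CPM were below the contralateral 13.96, 17.9, 21.7 and 19.4 CPM but overlapped the uncrushed 23.6, 12.8 and 9.40 CPM, which were themselves widely spread.

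Cdh5, the cadherin of endothelial adherens junctions, was at 50.9, 54.8, 50.6 and 48.7 CPM in crushed SNs. Uncrushed SNs held 24.4, 15.8 and 17.6 CPM and contralateral SNs 20.2, 22.7, 24.7 and 24.9 CPM, all below. The log2 fold change was 1.5 ± 0.14 against uncrushed SNs. In Dgcr8 iKO it overlapped the controls (30.7, 44.9 and 29.2 against 25.1, 30.5 and 26.0 CPM). Dicer controls 1, 2 and 3 had 86.5, 51.8 and 22.97 CPM, and Dicer iKO 26.6, 36.7 and 27.8 CPM. The direction for Cdh5 in the Dicer line turned from -0.82 ± 0.41 to 0.40 ± 0.23 without controls 1 and 2.

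Pecam1, an adhesion molecule of endothelium, platelets and leukocytes was at 61.5, 58.1 and 63.2 CPM in uncrushed and at 84.5, 75.6, 69.4 and 59.7 CPM in crushed SNs, which overlapped (0.35 ± 0.11). This total hid a shift between its transcripts. A retained-intron transcript of 2142 nucleotides took on average 63.0% of Pecam1 counts in uncrushed, 57.0% in contralateral and 29.0% in crushed SNs, and 1.19% to 1.73% in the iKO groups. Without it, Pecam1 was at 29.1, 20.01 and 18.6 CPM in uncrushed, at 21.7 to 26.0 CPM in contralateral and at 55.3, 55.2, 52.6 and 41.7 CPM in crushed SNs. The crushed libraries then lay above all others, as for Cdh5. These shares are RSEM estimates and differ between the experiments, which used different kits per the labels.

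The receptors Kdr, for VEGF, and Tek, for angiopoietins, differed in opposite directions after crush. Tek was at 24.8, 21.2, 24.1 and 22.5 CPM in crushed against 15.6, 10.52 and 10.3 CPM in uncrushed SNs (1.004 ± 0.16), without overlap. This value lay at the 2-fold limit and was 0.94, 0.98 and 0.99 without crushed 1, 3 or 4, and 0.93 and 0.91 without uncrushed 2 or 3. Against contralateral SNs it was 1.01 ± 0.11, and 0.96 and 0.98 without contralateral 1 or 4 and 0.94 and 0.96 without crushed 1 or 3. Kdr was at 23.2, 22.9, 22.5 and 18.1 CPM against 25.5, 31.5 and 27.0 CPM (-0.26 ± 0.12), a small gap in the other direction. In Dgcr8 iKO, Kdr was at 30.1, 29.5 and 22.2 CPM against 42.4, 35.0 and 42.4 CPM (-0.55 ± 0.15). Tek overlapped there, as did Pecam1 (log2 fold changes -0.26 ± 0.20 and -0.06 ± 0.15). In the Dicer line Kdr (-0.49 ± 0.20) and Tek (-0.26 ± 0.17) both overlapped their controls.

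To set the members against the endothelial content of each library, the median log2(CPM + 1) of 32 other endothelial genes was subtracted. That median was 3.18 in uncrushed, 3.31 in contralateral and 3.86 in crushed SNs, 4.47 and 4.32 in Dgcr8 controls and iKO, and 4.17 and 4.15 in Dicer controls and iKO. On this scale Plvap went from -2.11 ± 0.24 (SD, n = 3) in uncrushed to 0.71 ± 0.08 (n = 4) in crushed SNs and from -4.08 ± 0.18 to -0.79 ± 0.33 in the Dgcr8 line (n = 3 each). Aqp1 went from -2.30 ± 0.16 to 0.87 ± 0.21 and from -2.99 ± 0.60 to 1.46 ± 0.04 in the same pairs of groups. In the Dicer line Plvap was at -3.11 ± 0.36 and -2.97 ± 0.26, and Aqp1 at -1.97 ± 0.29 and -0.71 ± 0.67. Since Plvap and Aqp1 were chosen for their contrast with endothelial genes, these offsets are a description. Mfsd2a went from 2.74 ± 0.28 to -2.43 ± 0.08 after crush and from 2.32 ± 0.20 to 0.93 ± 0.21 in the Dgcr8 line, and Cldn5 from 0.75 ± 0.47 to -0.46 ± 0.13 and from 2.26 ± 0.25 to 1.23 ± 0.14.

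**Figure D3:**
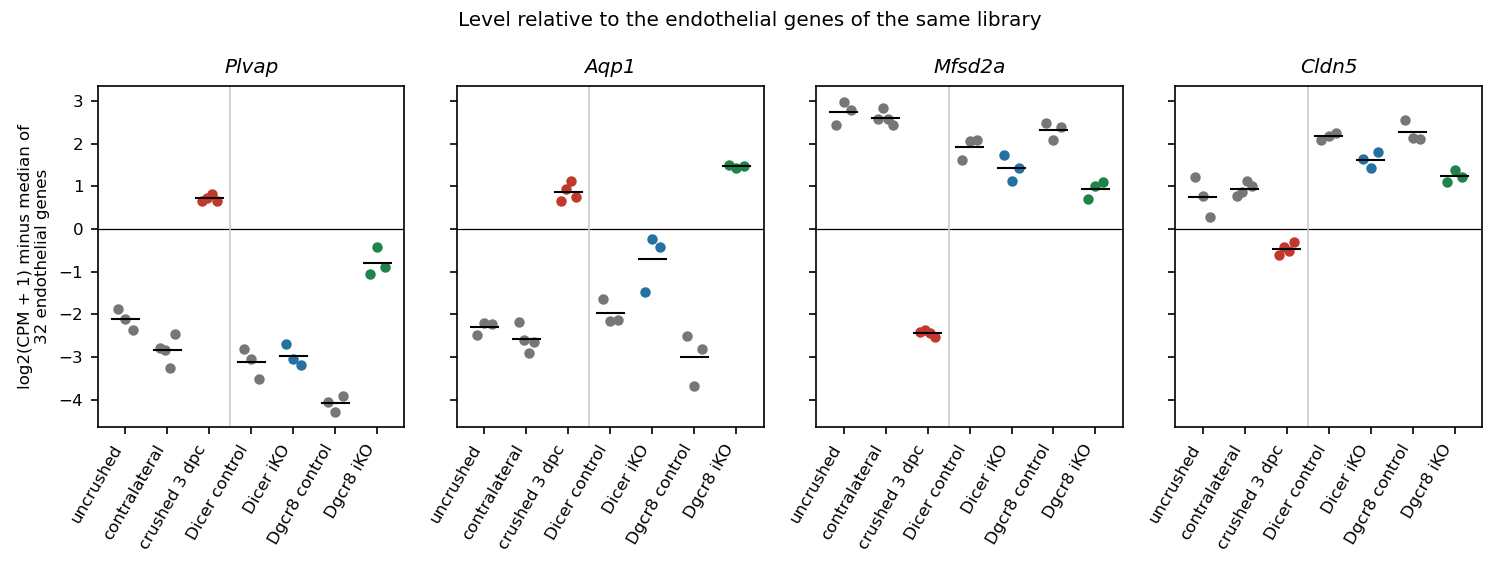
Log2(CPM + 1) of Plvap, Aqp1, Mfsd2a and Cldn5 minus the median of 32 other endothelial genes in the same library (vertical axis), by group, with a point for each library, a short bar for each group mean and a line at 0. Plvap and Aqp1 pass from below to above the endothelial median between uncrushed (-2.11 and -2.30) and crushed SNs (0.71 and 0.87), and Mfsd2a passes the other way.

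Per transcript length, as FPKM summed over transcripts, Mfsd2a led the members in uncrushed SNs at 35.4 ± 3.71 (SD, n = 3), ahead of Pecam1 at 27.3 ± 1.93 and Slc2a1 at 18.1 ± 2.02. Plvap and Aqp1 came last, at 0.553 ± 0.306 and 0.307 ± 0.0208, ranges that overlapped. In crushed SNs (n = 4) Pecam1 led at 30.1 ± 5.78, and Mfsd2a came last at 1.29 ± 0.147. Cdh5, Plvap and Aqp1 followed Pecam1 at 14.2 ± 0.165, 13.0 ± 1.69 and 11.05 ± 2.34, each overlapping its neighbour in this order. In Dgcr8 iKO, Slc2a1 at 43.6 ± 3.89 and Cldn5 at 38.9 ± 3.45 led with overlapping ranges, and Aqp1 came next at 23.1 ± 2.20, overlapping Mfsd2a at 21.4 ± 2.03. Plvap reached 6.08 ± 1.49 FPKM there, close to Tek at 5.33 ± 1.30 and Kdr at 4.96 ± 0.777. In Dicer iKO it stayed last at 0.723 ± 0.278.

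Over all 23 libraries, each centred on its own control libraries, the log2(CPM + 1) of Plvap and Aqp1 ran together with a Pearson r of 0.942, and Plvap and Mfsd2a ran opposite (-0.902). Among 12444 genes the 5 most like Plvap were Dpysl3 (0.963), Axl (0.963), Ddx11 (0.960), Prkaa1 (0.959) and 0610010F05Rik (0.955). Those most like Aqp1 were Sox4 (0.972), Calu (0.969), Mmp14 (0.969), Cdca3 (0.969) and Stk38 (0.967). The points share libraries, and these values rank genes and test nothing.

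The 3′ untranslated regions of the members were searched for matches to the seeds (bases 2 to 8) of 7 miRNAs that are named for the nerve in the study's text, since Dicer and Dgcr8 make miRNAs. The seeds that any member matched are in capitals here.
mmu-miR-27b-3p: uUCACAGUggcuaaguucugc
mmu-miR-22-3p: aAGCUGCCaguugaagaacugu
mmu-miR-181a-5p: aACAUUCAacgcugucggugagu
Plvap and Aqp1, in regions of 634 and 1758 nucleotides, held none of the 6 seed matches, nor did Pecam1, Kdr and Tek. At least 1 match was found in 5 of 10 members and in 46.06% of 20949 such regions of all genes (median length 937). Mfsd2a, Cdh5 and Abcb1a held the miR-27b-3p match, as did 15.84% of all regions. The miR-22-3p match was in Cldn5 and Slc2a1 and in 12.66% of all regions, and the miR-181a-5p match in Abcb1a and in 16.26%. The sites of Mfsd2a (miR-27b-3p) and Cldn5 (miR-22-3p), the members called lower in Dgcr8 iKO, are shown with the seed match in capitals.
Mfsd2a: cttagggctgctACTGTGAatatg
Cldn5: ctaacctgaaagGGCAGCTggaga
A match is to letters only and is no evidence of a site in use.

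The 124 other endothelial and barrier genes, of which 112 passed the filter between crushed and uncrushed SNs, were tested. Of these 28 were called higher and 22 lower, beside 15.3% and 21.1% of all genes, and their median log2 fold change was 0.23 (all genes -0.03). Of 32 endothelial identity genes 9 rose and 2 fell after crush. Thbd, an anticoagulant receptor, rose from 8.35 to 51.3 CPM (log2 fold change 2.70 ± 0.16, adjusted p = 3.12e-08 by edgeR's quasi-likelihood test), Cd93 from 22.5 to 114 CPM (2.43 ± 0.18) and the ETS factor Fli1 by 2.11 ± 0.16. The receptor gene Tie1 rose as well, from 6.48 to 14 CPM (1.2). Ecscr (-2.27 ± 0.14) and Gpihbp1 (-1.33 ± 0.34), which anchors lipoprotein lipase on capillaries, fell. Cd93 and Fli1 are also made by leukocytes, whose macrophage markers were higher in the same libraries, and the part of these cells in the changes was not tested.

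Transport and junction genes went both ways. Among 11 barrier transport genes, Slco1a4, an organic anion carrier of barrier endothelium, fell from 29.7 to 4.04 CPM (-2.76 ± 0.13, adjusted p = 3.6e-09 by the same test) and the large amino acid carrier Slc7a5 from 79.6 to 13.4 CPM (-2.46 ± 0.11). The taurine carrier Slc6a6 (1.85 ± 0.10), the transferrin receptor Tfrc (1.18 ± 0.15) and Abcc4 (1.04 ± 0.12) rose. Abcc4 fell short of 2-fold without crushed 3 (0.98) or uncrushed 2 (0.99). Slc6a6 (0.50 ± 0.10) and Tfrc (0.39 ± 0.10) were also higher in contralateral than in uncrushed SNs, though not called. Against contralateral SNs, 1 of 12 transport genes was called higher and 3 lower. Of 13 tight junction genes 4 fell and 1 rose. Among those that fell were Cldn19 (-4.64 ± 0.13), Jam3 (-2.36 ± 0.10) and Cgn (-1.09), and Cgnl1 rose (1.69 ± 0.21). Cldn19 and Jam3 are also junction genes of myelinating SCs, whose markers were lower in the crushed libraries.

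In the barrier programme list, of genes for Wnt and Hedgehog signals and the factors they act through, 4 of 20 rose and 6 fell. Shh, a ligand that SCs make after injury, rose from 2.18 to 367 CPM (7.48 ± 0.24, adjusted p = 2.3e-10 by the same test), and the factor Foxq1 by 1.66 ± 0.28. Wnt7b rose from 2 to 4 counts in uncrushed libraries to 85 to 123 in crushed ones, a ratio of pooled counts of 20.8 (exact 95% interval 11.2 to 43.6, counting error only). Spock2 (-2.34 ± 0.12), Itm2a (-2.03 ± 0.12) and the Wnt co-receptor Reck (-1.67 ± 0.12) fell, as did the Wnt target genes Axin2 (-1.10) and Apcdd1 (-1.26). Among 16 activation and sprouting genes 6 rose and 5 fell. Lrg1, a secreted factor of activated vessels, rose from 2 counts in each uncrushed library to 102 to 140 in crushed ones, a ratio of pooled counts of 40.1 (exact 95% interval 18.3 to 109.8). Lrg1 and Wnt7b passed the filter only through the crushed libraries. The apelin receptor Aplnr rose from 1.54 to 13.4 CPM (3.29 ± 0.25). Cxcr4 (2.78 ± 0.54), Icam1 (2.72), Selp (2.39) and Mcam (2.07) rose too. Cxcr4 and Selp did not pass the filter between contralateral and uncrushed SNs, so their test also rested on the crushed libraries. Angpt2, a ligand of Tek, fell from 26.8 to 4.89 CPM (-2.35 ± 0.16), while the Tek agonist Angpt1 rose (1.59 ± 0.28). The venule marker Ackr1 (-1.84 ± 0.13) and the tip cell gene Kcne3 (-1.19 ± 0.34) fell. Kcne3 was also lower in contralateral than in uncrushed SNs, by a similar size (-1.07 ± 0.35, not called).

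Of the remaining lists, 1 of 8 caveolae genes fell (Pacsin3, -1.55 ± 0.12) and 0 rose. Among 9 vascular ligands and co-receptors, Nrp1 (2.18 ± 0.13), Angptl4 (2.17 ± 0.18) and Angpt1 rose and Pdgfb fell (-1.10 ± 0.29, and -0.62 with the call lost without uncrushed 1). Besides Aqp1, 4 aquaporins could be tested. Aqp5 (3.21 ± 0.32) and Aqp9 (1.04 ± 0.40) rose and Aqp4 fell (-1.22 ± 0.46). Aqp5 and Aqp9 did not pass the filter between contralateral and uncrushed SNs, so their test rested on the crushed libraries. The Aqp9 call was lost without crushed 1 (1.04), crushed 3 (1.05), crushed 4 (0.90), uncrushed 1 (0.72) or uncrushed 2 (1.04), and by DESeq2 (1.02). That of Aqp4 was lost without crushed 2 (-1.04), crushed 3 (-1.2), uncrushed 2 (-1.31) or uncrushed 3 (-0.55). Against contralateral SNs Aqp9 was called (1.70) and Aqp4 was not (-0.54, adjusted p = 0.122 by edgeR's quasi-likelihood test). In that comparison, with the same crushed libraries, 27 of 111 other genes were higher and 22 lower, beside 14.6% and 13.6% of all genes.

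**Figure D4:**
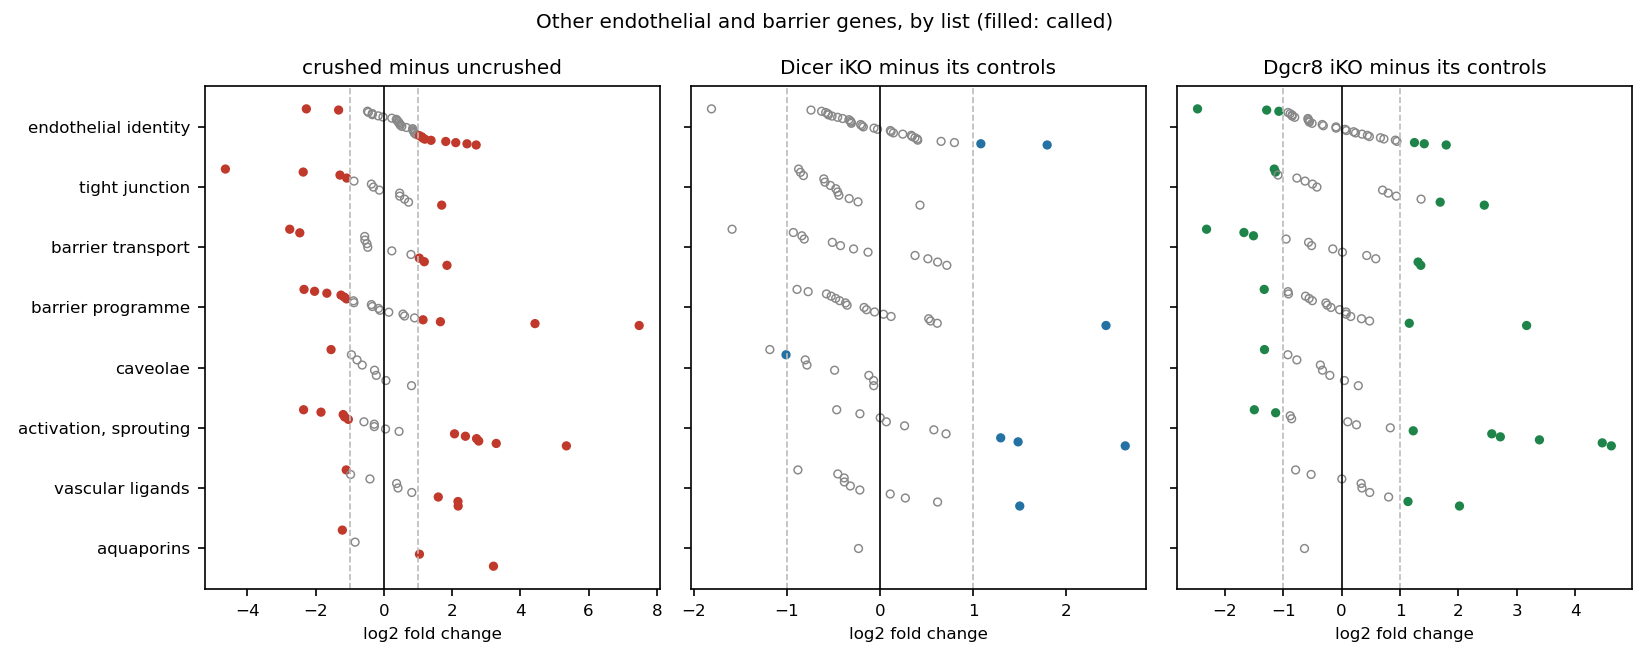
Log2 fold change of the other endothelial and barrier genes (points, 1 for each gene tested) by list, in crushed against uncrushed SNs and in each mutant line; filled points were called and dashed lines mark a change of 1 in either direction, with a scale of its own in each panel. In the crush panel the lists spread to both sides, from Shh at 7.48 to Cldn19 at -4.64, and in the Dicer panel 8 points are filled.

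In Dgcr8 iKO 17 of 103 other genes rose and 12 fell, beside 13.4% and 6.99% of all genes, with a median of -0.09 (all genes -0.01). Activation and sprouting genes rose in 6 of 13 and fell in 2. Cxcr4 rose from 3.43 to 36.3 CPM (3.39 ± 0.17, adjusted p = 5.08e-07 by edgeR's quasi-likelihood test). Lrg1 rose from 2 to 4 counts in control libraries to 41 to 92, a ratio of pooled counts of 25.8 (exact 95% interval 12.9 to 60.5, counting error only). Aplnr rose from 1 to 4 counts to 44 to 60, a ratio of 22.97 (10.3 to 63.6). Both passed the filter only through the iKO libraries. Icam1 (2.72), Mcam (2.57) and the basement membrane gene Nid2 (1.23) rose, and Ackr1 (-1.49 ± 0.26) and Apln (-1.13 ± 0.41) fell. The Apln call was lost by DESeq2 (-1.13) and without Dgcr8 control 1 (-1.12), control 3 (-0.92), iKO 1 (-0.89) or iKO 2 (-1.11). Among 31 identity genes, Thbd rose from 34.9 to 121 CPM (1.79 ± 0.16), Cd93 by 1.42 ± 0.20 and Tal1 by 1.25 ± 0.32. Gpihbp1 fell from 5.71 to 1.04 CPM (-2.47 ± 0.34), Robo4 by 1.28 and Ecscr by 1.07 on the log2 scale. Ecscr was at -0.98 without Dgcr8 iKO 3 and at -0.96 by library size alone, short of 2-fold.

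The barrier transport list of the Dgcr8 line showed the solute carriers on both sides again. Slco1c1, a thyroid hormone carrier, fell from 5.29 to 1.04 CPM (-2.31 ± 0.47), Slc7a5 from 137 to 42.9 CPM (-1.67 ± 0.16) and Slco1a4 from 93.5 to 32.8 CPM (-1.51 ± 0.23), while Slc6a6 (1.36 ± 0.18) and Slco2b1 (1.31 ± 0.18) rose, 5 of 12 tested. Of 13 tight junction genes, Cldn1 rose from 15.3 to 83.8 CPM (2.44 ± 0.36) and Cgnl1 by 1.69 ± 0.17, and Jam3 (-1.13 ± 0.17), which SCs also express, fell. Cldn1 is a perineurial marker, and 4 of 7 perineurial markers were called higher in this line, with sums of 509 to 612 against 492 to 842 CPM. Of 13 mural cell markers 3 were called higher (Anpep 4.38, Cspg4 1.19 and Vtn 1.07) and 3 lower (Kcnj8 -2.33, Higd1b -1.70 and Abcc9 -1.02). Mural markers summed to 766 to 953 CPM in Dgcr8 iKO and to 575 to 666 CPM in the controls. The part of SCs, macrophages, perineurial and mural cells in the changes of this line was not tested. Shh rose to 36.9 from 4.08 CPM (3.17 ± 0.17) and Adgra2 by 1.16 ± 0.19, and Spock2 fell (-1.33 ± 0.27), 3 of 17 programme genes. Cav2 (-1.32 ± 0.17) fell, and Nrp1 (2.02 ± 0.13) and Angpt1 (1.14 ± 0.38) rose. The Angpt1 call was lost without Dgcr8 control 1 (1.23), control 2 (1.17), control 3 (0.99) or iKO 2 (0.69), and that of Adgra2 without iKO 3 (0.99). Aqp11, the 1 aquaporin tested here, was at -0.65 ± 0.44.

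Crush and Dgcr8 iKO share no library. Of 100 other genes tested in both, 17 were higher in Dgcr8 iKO and 23 after crush, and 13 were in both, which is 76.5% and 56.5% of each. They were Adgra2, Angpt1, Aplnr, Cd93, Cgnl1, Cxcr4, Icam1, Lrg1, Mcam, Nrp1, Shh, Slc6a6 and Thbd. Lower in both were 8, which is 72.7% of 11 and 40.0% of 20, among them Ackr1, Ecscr, Gpihbp1, Jam3, Slc7a5, Slco1a4 and Spock2. Over all 12946 genes tested in both, these shares were 68.8% and 48.3% for higher and 78.4% and 40.4% for lower calls, so the shares of the endothelial genes lay near those of all genes.

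In Dicer iKO 7 of 100 other genes rose and 1 fell, beside 7.37% and 1.64% of all genes, with a median of -0.23 (all genes -0.01). Cxcr4 rose from 7.67 to 47.5 CPM (2.63 ± 0.31, adjusted p = 0.00288 by edgeR's quasi-likelihood test), Shh from 4.33 to 23.4 CPM (2.43 ± 0.36) and Cd93 from 47.8 to 166 CPM (1.80 ± 0.11). Nrp1 (1.5 ± 0.24), the melanoma adhesion gene Mcam (1.48 ± 0.14), Vcam1 (1.30 ± 0.20) and Fli1 (1.08 ± 0.20) rose. Of these 7, 5 were also called higher in Dgcr8 iKO, which is 71.4% of the 7 and 33.3% of 15, beside 89.9% and 52.5% over all genes. Vcam1 (0.83) and Fli1 (0.95) passed the adjusted p in Dgcr8 iKO and missed the 2-fold limit. Cav2, a caveolar coat gene, fell from 385 to 191 CPM (-1.01 ± 0.13). The calls of Fli1 and Cav2 were the ones that leaving out a library could end. That of Fli1 was lost without Dicer control 2, Dicer control 3 or Dicer iKO 3, and that of Cav2 without Dicer control 1, Dicer iKO 2 or Dicer iKO 3. Macrophage markers, whose sums are given above, were higher in Dicer iKO. The part of these cells in the changes of the Dicer line was not tested.

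Tight junction and transport genes held 0 calls among 12 each in the Dicer line, with 5 and 10 of them at an unadjusted p under 0.05. DESeq2 called 0 and 1 of them (Slco1c1), and over all other genes 7 higher and 4 lower, the 4 being Cav2, Cavin2, Gpihbp1 and Slco1c1. No share of all genes is set beside these counts at an unadjusted p or by DESeq2, and nothing is read from them. By edgeR Slco1c1 was at -1.59 ± 0.53 (adjusted p = 0.0698 by edgeR's quasi-likelihood test), Ocln at -0.87 ± 0.41 (adjusted p = 0.164) and Aqp11 at -0.23 ± 0.50 (adjusted p = 0.763). Against Dicer control 3 alone, an alternative chosen after seeing the data, the count over the other genes was 14 higher and 3 lower. Cldn1 (1.71, from -0.60 with all controls), Slc6a6 (1.53), Slco2b1 (1.24) and Icam1 (1.80) then rose and Gpihbp1 (-2.53) and Slc7a5 (-1.47) fell, as they did in Dgcr8 iKO. Cd34 (1.68), Abcb1b (1.15) and Jam2 (1.02) rose as well and were not called in Dgcr8 iKO, Cxcr4 was at 3.59, and Cav2 was no longer called. The direction turned in 18 of 100 genes, of which Cldn1 was called. This fit has 1 control library, which is assumed to vary like the iKO libraries. Fibroblast markers summed to 3781 CPM in that control and to 12094 to 13176 CPM in Dicer iKO, and their part in these values was not tested.

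Between contralateral SNs of injured mice and uncrushed SNs, edgeR called 0 of 17722 genes, with 3165 at an unadjusted p under 0.05. DESeq2 called 0 genes higher and 20 lower. Of the 8 members tested 0 were called by edgeR or DESeq2 and 0 had an unadjusted p under 0.05. Their adjusted p ran from 0.346 (Kdr, 0.19 ± 0.10) to 0.954 (Mfsd2a, 0.02 ± 0.12) by edgeR's quasi-likelihood test. Plvap and Aqp1 were below the filter, at pooled ratios of 0.326 (exact 95% interval 0.172 to 0.599) and 0.800 (0.441 to 1.48). The low Plvap ratio rests on 32 counts in uncrushed SNs, of which 21 came from replicate 1. Among the other genes 0 of 107 were called by edgeR, with 15 at an unadjusted p under 0.05, and 0 by DESeq2.

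The Dgcr8 and Dicer effects were set against each other as the difference of the log2 fold changes in 1 fit of the 12 iKO libraries. Plvap was past the adjusted p limit, higher by 4.78 ± 0.62, as 1 of 13552 genes in that direction (0.00738%), with 1 lower. Nothing is read from this, since Plvap was among the values that chose the members. At 2 to 4 counts in Dgcr8 controls and below the filter in the Dicer comparison, it entered this fit only through Dgcr8 iKO. With the replicate number as a block it was 4.76 and no longer passed. The other differences among members did not pass. They were 3.30 ± 0.49 for Aqp1, 1.19 ± 0.49 for Cdh5, -1.04 ± 0.25 for Mfsd2a and -0.62 ± 0.18 for Cldn5, and between -0.06 and 0.43 for the remaining 5. Of the 106 other endothelial and barrier genes 0 passed by edgeR, with 25 at an unadjusted p under 0.05. By DESeq2, 6 passed. No share of all genes is set beside the counts at an unadjusted p and by DESeq2, and nothing is read from them. Aplnr (3.84), Cgnl1 (2.18), Mcam (1.11), Angptl4 (1.04) and Thbd (1.01) were higher and Itm2a (-0.80) lower in the Dgcr8 line.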

How the data were processed

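RNA of 23 SN libraries in 7 groups was used, grouped by the sample labels. The authors trimmed reads (Trimmomatic 0.33), aligned them to Ensembl GRCm38 by STAR 2.5.1b and estimated transcript levels by RSEM 1.2.22. The deposited expected counts, estimated per transcript and not normalized, were summed per gene and rounded. The deposited FPKM, scaled by the authors to transcript length and library size, ranked members within a group only. Symbols matched 42365 of 43068 and 22570 of 22880 genes through GENCODE M21. The methods count as many mice as libraries in each group. No source used here links crushed and contralateral SNs of the same number. The 27 replicate pairs differed beyond sampling noise (chi-square per degree of freedom 4.36 to 42.4).

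Each comparison of 2 groups used edgeR 4.0.16 in R 4.3.3 (filterByExpr with minimum count 10, TMM, quasi-likelihood test, Benjamini-Hochberg adjustment over all genes tested), and the tests were tested on simulated data. Calls needed a 2-fold change and an adjusted p of at most 0.05, and the difference between lines the adjusted p alone. Standard errors are the log2 fold change over the root of the F statistic. Alternatives were DESeq2 1.42.0, library size alone, other filters, the adjusted p alone, the replicate number as a block, and leaving out libraries. Named genes were the members and, per list, up to 3 called genes per direction with the largest change, or the tested gene with the largest change. Tie1, Cgn, Axin2, Apcdd1, Icam1, Selp, Nid2 and, in some comparisons, Mcam were named after their values were seen. The members and lists were chosen with earlier results of these data known. miRNA and promoter sequences are from RefSeq. Some items are not reported here.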

Additional observations from a re-analysis of the deposited data

Results flagged for a closer look

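The crushed and contralateral groups of 4 libraries gave 40 sets of member values, in CPM and relative to the endothelial median, and in 3 of them a library lay far from the rest, where chance gives about 1 in 20. Kdr was at 18.1 CPM in crushed replicate 4, with 22.5 to 23.2 CPM in the other crushed libraries. Mfsd2a was at 1.22 CPM in the same library, with 1.84 to 1.92 CPM in the others. Abcb1a was at 56 CPM in contralateral replicate 1, with 68.1 to 70.5 CPM in the others. Plvap differed between the Dgcr8 and Dicer effects by 4.78 on the log2 scale, in a fit of all genes, and was chosen with both effects known. A fit blocked on replicate number gave 4.76, which no longer passed the limit.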

How the results depend on the processing

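The members' differences after crush and in Dgcr8 iKO kept their direction under every alternative run, except Pecam1 in Dgcr8 iKO, which was 0.06 by library size, 0.02 without Dgcr8 control 1 and 0.07 without Dgcr8 iKO 3. Calls at the adjusted p alone were 9 and 10 members after crush (against uncrushed and contralateral SNs), 3 in Dicer iKO and 7 in Dgcr8 iKO, and 85 (46 higher), 89 (50 higher), 22 (12 higher) and 64 (30 higher) other genes. A filter of 10 counts in every sample removed Plvap and Aqp1 and left 2, 3 and 2 members called in the crush and Dgcr8 comparisons. Without Dicer controls 1 and 2, 0 members and 17 other genes were called. For the difference between lines, 1 other gene (Mcam, 1.10) passed with no filter and 6 by DESeq2. By library size alone, Dicer calls were 7 higher and 0 lower in place of 7 and 1, and members against contralateral SNs 4 and 1 in place of 4 and 2. That scaling put the median of all genes at 0.10 in contralateral SNs and Dgcr8 iKO.

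With 1 library left out, other genes called ranged from 46 to 51, 48 to 51, 0 to 0, 6 to 14 (Dicer, 14 without iKO 1) and 29 to 36 (Dgcr8), and members from 4 to 5, 5 to 6, 0 to 0, 0 to 4 (Dicer, 4 without control 3, with Cdh5 -1.19, Abcb1a -1.13 and Slc2a1 -1.14 called; 0 without control 2, iKO 2 or iKO 3) and 4 to 4. In contralateral against uncrushed SNs, leaving out 1 library gave -0.03 (without uncrushed 3) to 0.72 for Cldn5, up to 0.19 (without uncrushed 1) for Tek, -0.09 (without contralateral 2) to 0.08 for Mfsd2a and -0.16 to 0.03 (without uncrushed 1) for Slc2a1. Tek was 0.03 and Slc2a1 0.02 by library size, and Mfsd2a -0.01 with 10 counts in every sample. In Dicer iKO, Ocln was 0.34, Cdh5 0.40 and Cldn1 1.71 (called) without both controls, where 18 of 100 other genes turned, and Aqp11 ranged from -0.79 to 0.16 (without iKO 2). The cause was not tested.

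Replicate numbers were not used to pair the libraries in the main tests. In the Dicer line, where iKO and controls are different mice, same-numbered deviations correlated as low as -0.19. Per the methods, the contralateral SN was harvested along with the crushed one, so crushed and contralateral SNs share mice by design. Which libraries share a mouse is not given. There the mean correlation was 0.050 for same-numbered pairs (lowest -0.12) and -0.017 for other pairs. These values, not tested, do not decide whether a number marks the same mouse. The main test of crushed against contralateral SNs ignores the pairing by mouse. With the number as a block, 0 members were called in Dicer iKO, 49, 48, 0, 8 and 28 other genes in the comparisons in the order above, and Plvap's difference between lines (4.76) no longer passed.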
